A study of Gossypium barbadense and Gossypium hirsutum with 4 samples.

Results

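Selected ribosomal probe sets of the cotton array were compared between fibers of *G. hirsutum* (*Gh*, variety Guazuncho 2) and *G. barbadense* (*Gb*, variety VH8-4602). The selection held 11 of the 24029 probe sets compared and does not cover all ribosomal proteins on the array. A first group of 5 was chosen by measured values: these probe sets carry a ribosomal protein name in rows of a study list that hold signals higher in *Gh* by 2-fold or more, which fixed their direction. The other 6 were taken in by name. Of these, 2 share a cluster number with one of the 5, so that they are not free of that choice. The names of the other 4 mark them as ribosomal RNA (rRNA). Fibers were sampled at 11 days post anthesis (dpa), during elongation, from untreated plants grown in soil in a glasshouse. Each genotype is represented by 1 variety and 2 Affymetrix arrays, each array hybridized with RNA pooled from several plants, so that a difference between species and one between these varieties cannot be told apart. Values are log2 signals normalized over the 4 arrays by the authors with gcrma, and differences are *Gb* minus *Gh*. Arrays are named by the numbers of their labels, *Gb* 1 and 2, and *Gh* 29 and 30.

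The ribosome translates messenger RNA into protein. It is built from a small and a large subunit, each a core of rRNA covered by many ribosomal proteins, whose names begin with S in the small subunit and with L in the large one. Plant cells hold 3 kinds, a cytosolic ribosome and bacterial-type ribosomes in plastids and mitochondria. In the cytosolic kind, most of the rRNA is transcribed in the nucleolus and the proteins are made from nuclear messengers. Some proteins of the plastid ribosome are encoded in the plastid itself. Growing cells such as elongating fibers are known for a high demand for ribosomes.

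The 5 chosen protein probe sets were dimmer on each *Gb* array than on either *Gh* array, as the rule of their choice fixed. They are the proteins of 1 side of the study's list, so that they do not describe ribosomal proteins as a whole and set no direction for the rRNA to be compared with. Among the differential ribosomal protein genes of these arrays, the study reports most as higher in *Gb*. The 2 probe sets taken in by cluster number were also dimmer in *Gb*, with a median difference of -0.47, but they are not independent of the chosen probe sets of their clusters. Of the 4 rRNA probe sets, 3 had higher signals on both *Gb* arrays, and the fourth lay under the level taken as measurable. Their median difference, with the fourth included, was 0.77, beside 0.037 over all probe sets. Of all 24029 probe sets 16872 were higher in *Gb*, so that 3 of 4 by itself says little about rRNA. Arrays of the genotypes did not overlap for 11 of the 11 members, but the same held for 81.9% of all probe sets, so that this count says little about the ribosome. In RNA of whole fibers, fewer cells of a type and less RNA per cell cannot be told apart, and neither can a lower transcript level and a poorer match of the probes to *Gb* sequences.

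**Figure D1:**
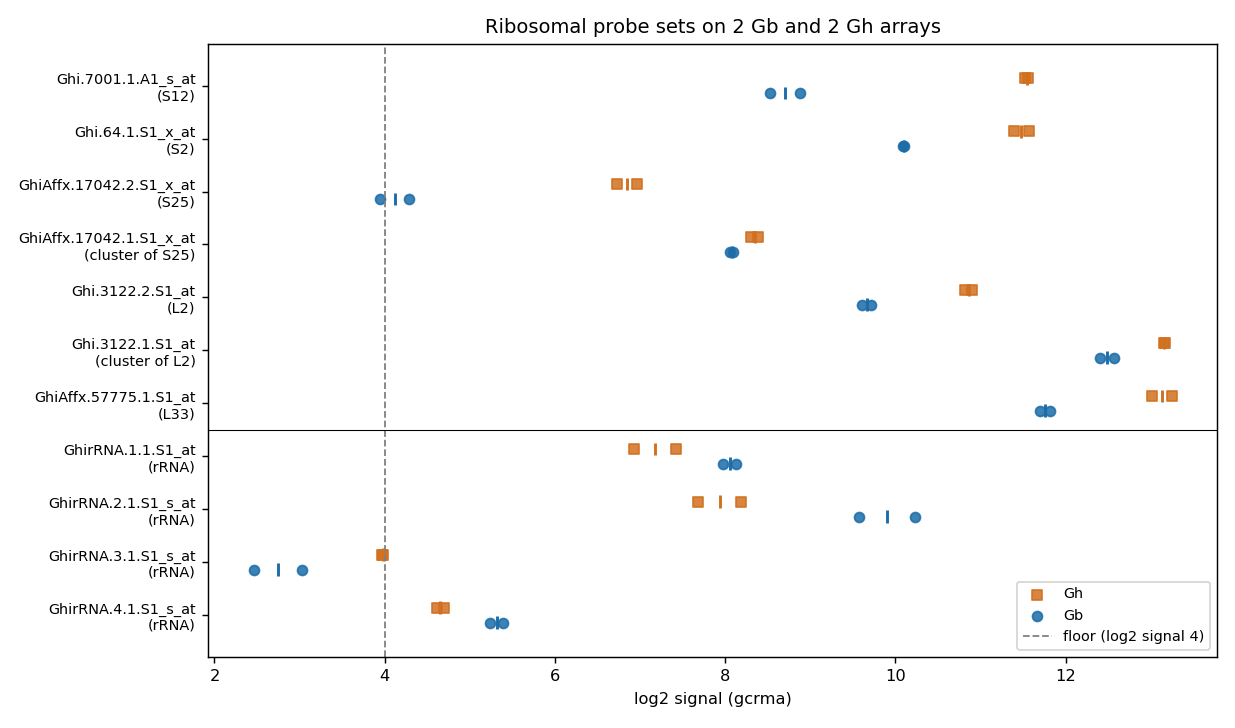
Log2 signal (horizontal axis) of the 11 ribosomal probe sets on each array, with circles for the 2 *Gb* arrays, squares for the 2 *Gh* arrays, short bars for the means and a dashed line at the floor of 4. *Gb* lies to the left of *Gh* in the 7 protein rows, 5 of them chosen for it, and to the right in the rRNA rows GhirRNA.1.1.S1_at, GhirRNA.2.1.S1_s_at and GhirRNA.4.1.S1_s_at.

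The genotypes were compared with limma over all probe sets, with p-values adjusted by Benjamini-Hochberg and a threshold of 0.05. Over the whole array, the calls were 11.4% of probe sets in favor of *Gb* and 8.87% in favor of *Gh*. The members taken in by name numbered 6, of which 4 were called. Both called rRNA probe sets were higher in *Gb* and both called protein probe sets higher in *Gh*, which is 2 of 6 members in each direction. The 2 protein calls are not independent of the choice, since another probe set of each cluster was chosen as higher in *Gh*. With 2 arrays against 2, an exact permutation test of a single probe set cannot give a two-sided p below 0.333. These calls therefore rest on the assumptions of the limma model, in which the spread is only partly pooled over probe sets. When the arrays were scaled to their hybridization controls, transcripts of microbes and a phage spiked into every sample, this moved the median difference of all probe sets from 0.037 to -0.26 and the share of calls that were higher in *Gb* from 56.3% to 25.7%. All 11 members kept their direction under this scaling. It lowered every difference, so that only members higher in *Gb* could have turned.

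**Figure D2:**
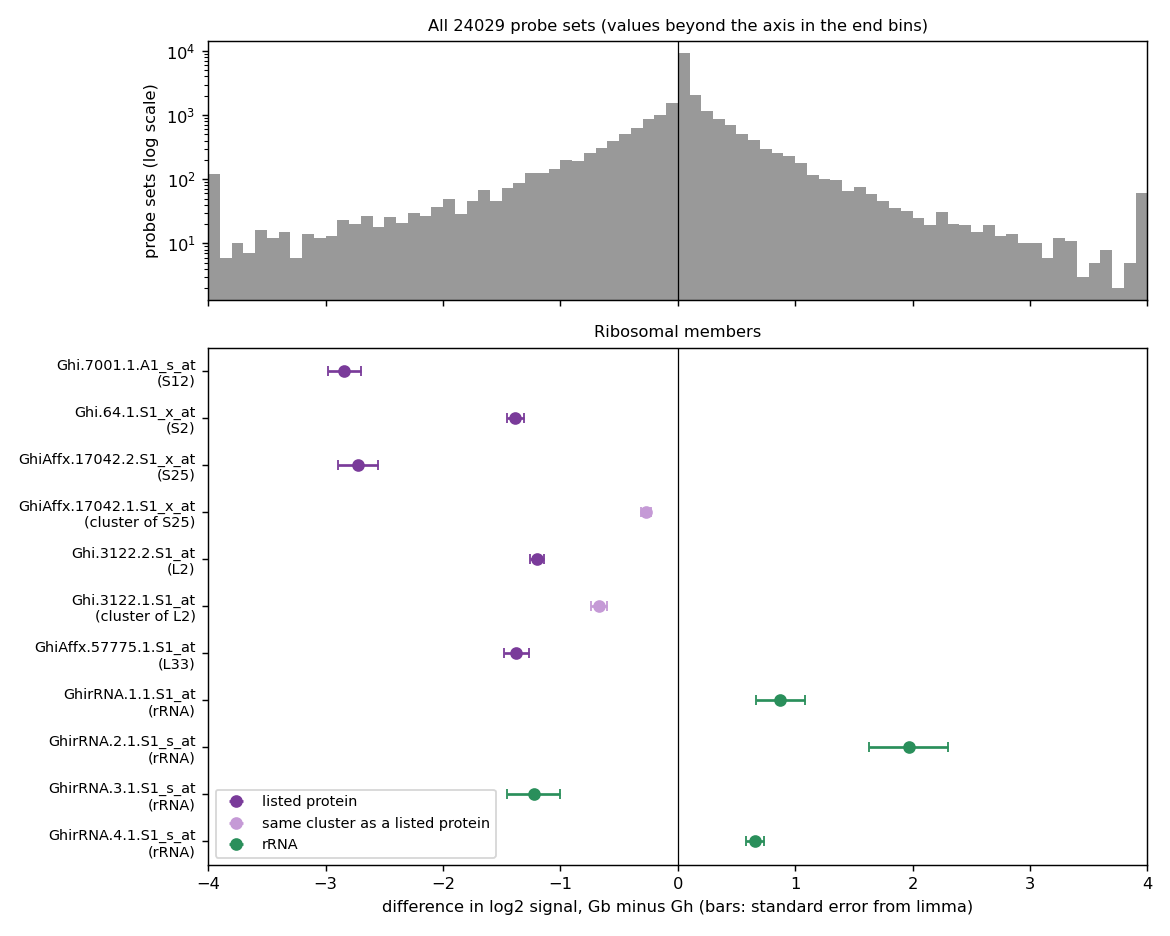
Top, number of probe sets (log scale) by their difference in log2 signal, *Gb* minus *Gh*. Bottom, the same difference for the 11 ribosomal members, where bars are the standard error from limma. The protein members, 5 of them chosen as higher in *Gh*, lie between -2.84 and -0.27, and the rRNA members at 0.66, 0.87, 1.97 and -1.23.

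In the small subunit, S12 (Ghi.7001.1.A1_s_at) was named as a protein of the cytosolic small subunit and described on the array by its similarity to a rice protein. Its log2 signal was 8.53 and 8.88 on the *Gb* arrays and 11.53 and 11.56 on the *Gh* arrays. The *Gh* arrays were nearly equal and the *Gb* arrays were 0.35 apart, a small gap beside the 2.65 that separated the nearest arrays of the genotypes. The means differed by -2.84 (standard error 0.14, n = 2 per genotype), a 7.17-fold higher signal in *Gh*. Of all probe sets, 0.995% had a lower difference.

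S2 (Ghi.64.1.S1_x_at) is named as a protein of the small subunit. In the cytosolic ribosome of yeast, the protein of this name takes part in accurate decoding. This probe set was read at 10.09 and 10.11 in *Gb* and at 11.40 and 11.56 in *Gh*. Both genotypes were bright and their arrays well apart, with a difference of -1.38 (standard error 0.07), or 2.61-fold in favor of *Gh*. Neither S12 nor S2 had a second probe set in its cluster.

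S25 is a cytosolic small subunit protein without a bacterial counterpart. Its listed probe set (GhiAffx.17042.2.S1_x_at) had 3.94 and 4.29 in *Gb* and 6.73 and 6.96 in *Gh*. *Gh* was higher by 2.44 even between the nearest arrays, but the signal in *Gb* was at the edge of what could be measured, taken here as a log2 signal of 4, with 1 array above and 1 below. The difference was -2.73 (standard error 0.17), or 6.62-fold. If signals under 5 were counted as not measurable, only a bound of at least 3.59-fold would remain. The other probe set of this cluster (GhiAffx.17042.1.S1_x_at) gave another picture, with 8.06 and 8.10 in *Gb* and 8.31 and 8.38 in *Gh*. It was well measured in both genotypes, and *Gh* was only 1.21-fold higher (difference -0.27 with a standard error of 0.04, limma adjusted p = 0.0415). This call did not hold without any 1 of the 4 arrays (adjusted p of 0.0773 to 0.154 from limma) and held under 3 of its 13 alternatives.

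In the large subunit, L2 is a protein that in bacteria lies near the center where peptide bonds form. The listed probe set (Ghi.3122.2.S1_at) is described as strongly similar to an L2 of Arabidopsis, from an entry of the chloroplast genome. It had 9.61 and 9.71 in *Gb* and 10.81 and 10.90 in *Gh*. The arrays of each genotype were about 0.1 apart or less, against a difference of -1.20 (standard error 0.06), or 2.29-fold. This was the value nearest to the limit of 2-fold among the 5 chosen probe sets. The list's rows of smaller differences, or higher in *Gb*, and their ribosomal protein names were not used here, and no value just outside the limit is given.

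The other probe set of the L2 cluster (Ghi.3122.1.S1_at) was brighter, with 12.57 and 12.41 in *Gb* and 13.16 and 13.15 in *Gh*. It was lower on both *Gb* arrays, by -0.67 (standard error 0.07, limma adjusted p = 0.0182), which is 1.59-fold in favor of *Gh*. The call remained without either *Gb* array and was lost without either *Gh* array (adjusted p of 0.0587 and 0.0614 from limma).

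L33 (GhiAffx.57775.1.S1_at) is a protein of bacterial-type ribosomes, which plant cells hold in plastids and mitochondria. Its signal was 11.70 and 11.81 in *Gb* and 13.24 and 13.02 in *Gh*. It was thus far above the floor in both genotypes, with a difference of -1.37 (standard error 0.10), or 2.59-fold higher in *Gh*. Its cluster held no other probe set.

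Probe sets of the same cluster thus differed in size but not in sign. Within the S25 cluster the differences were 2.46 apart and within the L2 cluster 0.53 apart. Over the 3257 clusters with at least 2 probe sets on the array, the median range was 0.24, and 3.78% of the clusters had a larger range than the S25 cluster and 29.4% a larger one than the L2 cluster. All differences of a cluster had the same sign in 68.6% of these clusters. One probe set of each pair was chosen for its difference, so these values describe the pairs only. Names ending in _x_at or _s_at mark probe sets whose probes can match more than 1 transcript. Among the proteins this holds for S12, S2 and both probe sets of the S25 cluster. Among the rRNA probe sets it holds for GhirRNA.2.1.S1_s_at, GhirRNA.3.1.S1_s_at and GhirRNA.4.1.S1_s_at.

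Whether the signals of the rRNA probe sets follow the amount of rRNA in the fiber was not tested. Among these probe sets, GhirRNA.2.1.S1_s_at had 9.57 and 10.23 in *Gb* and 8.19 and 7.68 in *Gh*. Both *Gb* arrays lay above both *Gh* arrays, by 1.38 between the nearest, although the replicates were far apart. The mean difference was 1.97 (standard error 0.34, n = 2 per genotype, adjusted p = 0.047 from limma), a 3.91-fold higher signal in *Gb*, and 1.33% of all probe sets had a higher one. The gap between its replicates, 0.66 in *Gb* and 0.51 in *Gh*, exceeded that of 97.7% and 95.2% of the 11366 probe sets with a mean signal of at least 5. The call was lost whichever array was left out (adjusted p of 0.0648 to 0.114 from limma), while the difference stayed between 1.64 and 2.30. It was also lost with a robust prior and after cyclic loess (0.0573 and 0.0683).

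GhirRNA.1.1.S1_at had 7.97 and 8.13 in *Gb* and 7.42 and 6.93 in *Gh*. *Gb* was again higher on both arrays, but the *Gh* arrays were 0.49 apart. The difference of 0.87 (standard error 0.21) missed the threshold (limma adjusted p = 0.0895), with a 95% confidence interval before adjustment of 0.22 to 1.53. It passed under 7 of 13 alternatives, among them the methods' t-test, an intensity trend, the filter on dim probe sets and the scaling to the hybridization controls.

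GhirRNA.4.1.S1_s_at was dim, with 5.24 and 5.39 in *Gb* and 4.70 and 4.61 in *Gh*. The difference of 0.66 was small but the replicates lay close together (standard error 0.08, adjusted p = 0.0222 from limma, 1.58-fold higher in *Gb*). The call held without *Gb* replicate 1 and was lost without any of the other 3 arrays (adjusted p of 0.0515 to 0.067 from limma), with a difference of 0.58 to 0.74 when 1 array was left out. It was also lost with an intensity trend (0.0595) and after scaling to the hybridization controls, where the difference was 0.37 (0.0616).

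GhirRNA.3.1.S1_s_at, described as an rRNA from an entry named CHGH5SR, was the only rRNA probe set that was not higher in *Gb*. It had 2.47 and 3.03 in *Gb* and 3.97 and 3.98 in *Gh*. All 4 values were below the floor, so that no fold was taken from the difference of -1.23 (limma adjusted p = 0.0545, standard error 0.23). Which rRNA the other 3 probe sets stand for, and whether the 4 belong to the same kind of ribosome, is not given in the sources used here, so that their count and median rest on the name alone.

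**Figure D3:**
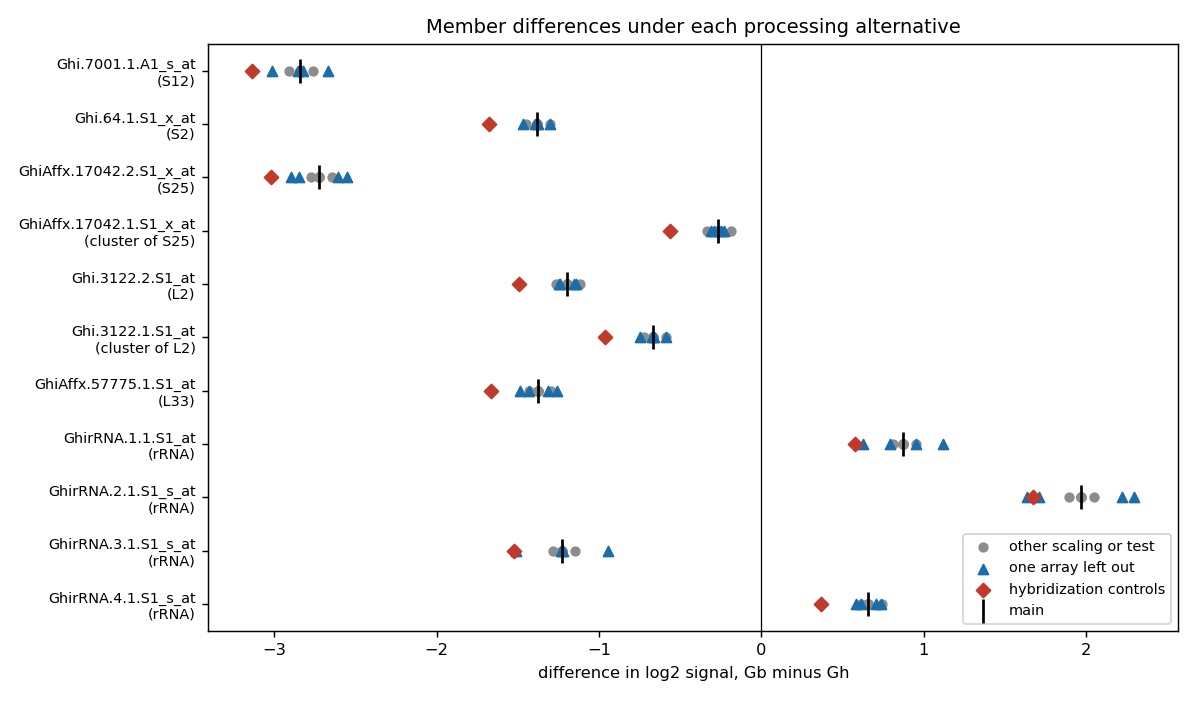
Difference in log2 signal, *Gb* minus *Gh* (horizontal axis), of the 11 ribosomal members as reported (vertical marks) and under each processing alternative (triangles, 1 array left out; diamonds, scaled to the hybridization controls; circles, other scalings or tests). No point crosses 0, which only the scalings of the arrays could have changed. The rRNA probe set GhirRNA.2.1.S1_s_at spreads from 1.64 to 2.30.

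The rRNA signal varied between replicate arrays in the same order for several probe sets. *Gb* 2 was above *Gb* 1 for 4 of the 4 rRNA probe sets, and *Gh* 29 above *Gh* 30 for the 3 that lay above the floor. Among the protein probe sets *Gb* 2 was above *Gb* 1 for 6 of 7 and *Gh* 29 above *Gh* 30 for 2 of 7. Over all probe sets these shares were 36.7% and 68.2%, and over those with a mean signal of at least 5, which leave out GhirRNA.3.1.S1_s_at and GhirRNA.4.1.S1_s_at, 57.5% and 55.9%.

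The hybridization controls and a measure of RNA quality differed between the genotypes too, while the poly-A controls overlapped between them. The mean of the 27 hybridization control probe sets was 11.25 and 11.24 on the *Gb* arrays and 11.05 and 10.85 on the *Gh* arrays, higher in *Gb* by 0.29. The 36 poly-A control probe sets, bacterial transcripts added before labeling, had means of 7.15 and 8.11 in *Gb* and 7.25 and 6.99 in *Gh*. *Gb* 2 stood apart there, and the other 3 arrays lay close together. The 5' minus the 3' signal of the *G. hirsutum* actin control, which falls as RNA is degraded or copied short, was -3.03 and -3.07 in *Gb* and -2.52 and -2.18 in *Gh*. The same measure was lower in *Gb* for 4 of 6 cotton control transcripts and higher for 2 of 6, with no overlap of arrays in any of them. The part of these differences in the rRNA and protein signals was not tested. After scaling to the hybridization controls, the differences of the rRNA probe sets above the floor were 0.58, 1.67 and 0.37, each still higher in *Gb*, the last without its call.

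**Figure D4:**
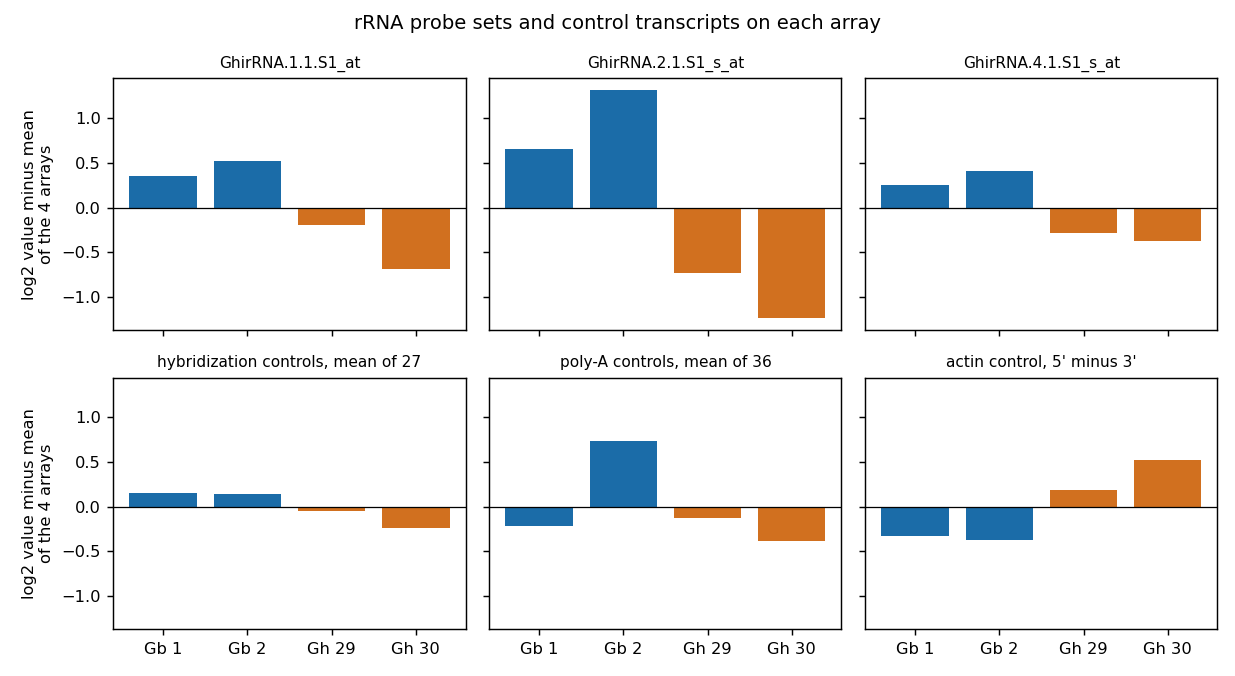
Log2 value minus the mean of the 4 arrays (vertical axis) for the 3 rRNA probe sets above the floor, the means of the hybridization and poly-A controls and the 5' minus 3' signal of the actin control, with a bar per array (blue *Gb*, orange *Gh*). The rRNA bars are above 0 on both *Gb* arrays and below 0 on both *Gh* arrays, as are those of the hybridization controls, and the actin bars run the opposite way.

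Other genes of translation and RNA synthesis were named in the same rows of the study's list, so that a higher signal in *Gh* was again fixed by their choice. They were 5, with differences from -2.23 to -1.13. A ribosomal-protein-alanine acetyltransferase, an enzyme that in bacteria modifies ribosomal proteins, had 5.15 and 5.08 in *Gb* and 7.36 and 7.33 in *Gh*. This was a difference of -2.23 with replicates less than 0.1 apart. A GTP-binding translation elongation factor, of the proteins that drive the ribosome along the messenger, differed by -1.29. A pseudouridine synthase, of a family that modifies RNA, differed by -1.46. The 2 RNA polymerase subunits, the third largest subunit and RPB10, differed by -1.22 and -1.13.

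Since the L2 description points to the plastid, 5 plastid-encoded proteins named in these rows were set beside it. They too were chosen as higher in *Gh*, with differences from -2.05 to -1.27 and a median of -1.62. The Rubisco large subunit, which fixes carbon dioxide, had 6.72 and 7.44 in *Gb* and 9.43 and 8.83 in *Gh*. Its replicates were far apart, and the standard error was 0.38. Cytochrome f of the photosynthetic electron chain had a difference of -1.35, CP43, an antenna protein of photosystem II, one of -1.27, subunit 2 of the NADH-plastoquinone oxidoreductase one of -1.62, and ycf9 one of -1.75. Signals were also read for 5 names of fiber genes, an expansin, a xyloglucan endotransglycosylase, a sucrose synthase and 2 lipid transfer proteins. All were above the floor on every array, with group means from 6.31 to 14.68. These names too came from the rows higher in *Gh*, which fixed the direction of all 5, with differences from -3.12 to -1.14. Other members of these families can go the other way, and the study reports some xyloglucan endotransglycosylases of these arrays as higher in *Gb*. Chosen in this way, the 5 names are no check of the fiber label. The 2 names of nuclear genes of green tissue came from the same rows, so that a higher signal in *Gh* was fixed by their choice. CP12 was at 9.85 in *Gb* and 11.74 in *Gh*. Photosystem I subunit IV A was at 2.52 in *Gb*, below the floor, and at 4.51 in *Gh*. Whether green tissue had a part in the plastid-type ribosomal signals was not tested.

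The probe sets whose pattern over the 4 arrays was most like that of each chosen protein were found by the distance between log2 values centered on the mean of each probe set. For L33 the nearest was the plastid-encoded cytochrome f, at a distance of 0.03, followed by a Rab18 homolog (GhiAffx.62087.1.S1_s_at, 0.055). For S12 the nearest was Gra.2038.1.S1_s_at, described by its similarity to a BURP domain-containing protein (0.077), and this probe set was also the second nearest to S25 (0.11). The nearest to S25 was GraAffx.32961.1.A1_s_at, without a name here (0.105), and the second nearest to S12 was Ghi.9584.4.S1_at, described as similar to a zinc-binding oxidoreductase (0.115). For S2 these were GhiAffx.8571.1.S1_s_at, without a name here (0.034), and Ghi.10278.1.S1_s_at, described as copine-like (0.039). For L2 they were Ghi.6518.1.S1_s_at, described as similar to the dormancy-associated DRM1 (0.035), and GhiAffx.22659.1.A1_at, without a name here (0.047). With 4 arrays, this measure mostly follows the size of the difference between the genotypes.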

How the data were processed

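The scanner files were imported in R by the authors and normalized with gcrma (listed by the submitters as GCRMA, of which no version was found), and the deposited values are log2 signals of 24132 probe sets on 4 arrays. gcrma equalizes the distributions of the arrays, so that a shift of all transcripts cannot be seen. The 103 control probe sets were left out, and limma 3.58.1 in R 4.3.3 (lmFit, eBayes, no covariate, two-sided) was fitted to the other 24029, with Benjamini-Hochberg adjustment. No test is given for the 5 listed proteins, whose rows had been ranked on the same contrast. The members, lists and tests were chosen with earlier results of these data known.

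Where both arrays of a genotype lay under log2 4, the probe set was called below the floor there, since no detection calls were used. Precision is limited by having 4 arrays, for which no batch is named. Array medians were 4.26 to 4.36. The study calls the arrays of a genotype independent replicates, and p-values measure the spread between 2 arrays of a variety. Names came from the array descriptions and Blast2GO names in part of a table of the study, whose fold changes and p-values were not used. All members are named, with every probe set of the lists and the 2 nearest patterns of each chosen protein. The gene table of *G. barbadense* matched 0 of the probe sets, and probe sequences were not analysed here. In a test on simulated data (24029 probe sets, 50 changed by each size), limma recovered 92% of differences of 4, 66% of 2, 34% of 1 and 12% of 0.5 on the log2 scale, with 3 false calls. The changed probe sets all had a mean signal of at least 5 and were far fewer than the 4880 called in the data. These rates therefore do not carry over to the data.

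Alternatives were Bonferroni adjustment, a common variance as in the methods' t-test (variances beyond the 0.0001 and 0.9999 chi-square quantiles left out), an intensity trend, a robust prior, a filter of log2 5 on 2 arrays, array medians, cyclic loess, scaling to hybridization controls, leaving out probe sets of several transcripts, other floors and leaving out each array. Plots used matplotlib 3.10.9 (Python 3.11.15).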

Additional observations from a re-analysis of the deposited data

How the results depend on the processing

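All 11 members kept their direction in every alternative that gave a value for them, but most alternatives could not have turned it. Changes of test, adjustment or filter leave the difference as it was. Leaving out 1 array cannot turn the sign where the arrays of the genotypes do not overlap, as held for all 11. Only the scalings of the arrays could have done so. The calls of the 6 members taken in by name did change. Of these, 4 were called with limma. With the Bonferroni adjustment 0 were called (6 had an unadjusted p under 0.05, and the methods' t-test called 5), and of the 2 that remained without probe sets of several transcripts 1 was called. Both rRNA probe sets called with limma are of several transcripts and were left out of that fit, in which 0 rRNA probe sets were called. Leaving out 1 array gave 0 to 3, with the lowest count without *Gh* replicate 30, where 6 had an unadjusted p under 0.05. It gave 1 without *Gh* replicate 29 and 2 without *Gb* replicate 2. Over all probe sets, 4880 were called, against 33 with the Bonferroni adjustment, 7328 with the methods' t-test adjusted by Benjamini-Hochberg, 7747 after scaling to the hybridization controls, 1998 without probe sets of several transcripts, and 2542 to 3947 with 1 array left out. The lowest of these was without *Gb* replicate 2, and 2798 were called without *Gb* replicate 1. The cause was not tested, apart from the smaller number of probe sets or arrays in the fits that leave some out. At the floor of 4, 1 member (GhirRNA.3.1.S1_s_at) was below it in each genotype, 0 in each at a floor of 3, and 2 in each at a floor of 5. Scaling to the hybridization controls took 0.29 from the difference of every member. No paired analysis was possible because the labels of the genotypes share no replicate number. Signals near the floor limit what can be said of S25 in *Gb* and of the dim rRNA probe sets.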
